A study of Drosophila melanogaster with 12 samples.

Results

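The comparison described here set control males against control females of Drosophila melanogaster, 6 of the 12 whole-fly RNA-seq libraries of the series, 3 biological replicates per sex chosen by their sample labels. Both sexes carried y and w, a wild-type second chromosome pair and the balancer TM3 opposite a wild-type homologue, so that the markers and inversions of TM3 were shared by all control flies. The other 6 libraries came from females and males with the P-element transgene H83M2-6I, marked with mini-white, which drives MSL2. The transgenic females were y w; (w+) H83M2-6I/+; +/+, without TM3, and the full genotype of the transgenic males is not given in the labels. The age of the flies is not given either. Total counts per library were 33849887, 56111375 and 79622278 in control females 1 to 3 and 53294740, 41975875 and 46966785 in control males 1 to 3. Counts are given as CPM, TMM-scaled counts relative to a library's total. A gene was called where its Benjamini-Hochberg adjusted p was under 0.05 in edgeR's quasi-likelihood test over the 13060 genes tested, and log2 fold changes are males over females, so that negative values are higher in females.

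In Drosophila, females are XX and males XY. In males the MSL complex, a set of proteins with the noncoding RNAs roX1 and roX2, coats the single X and raises its transcription, while in females the splicing regulator Sxl blocks translation of msl-2 and so keeps the complex from forming. Sxl also directs the splicing cascade through tra and tra2 to dsx and fru, which sets the sex of somatic cells. The largest organs that differ between adult flies are the ovary, which stocks eggs with yolk, shell and maternal RNAs, and the testis and accessory glands, which make sperm and seminal fluid. RNA of whole flies sums all of these tissues, and a smaller number of cells of a type cannot be told apart from less RNA per cell.

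The marker transcripts matched the labelled sexes in all 6 libraries. The yolk protein gene Yp1, expressed in female fat body and follicle cells, had 6611, 6717 and 6013 CPM in the females and 16.1, 31.8 and 14.6 CPM in the males. The protamine gene Mst35Bb, whose product packs DNA in spermatid nuclei, had 0.35, 0.30 and 0.285 CPM in the females and 91.1, 79.1 and 85.8 CPM in the males. Neither gene's groups overlapped, as was the case for 10062 of the 13060 genes tested (77%). Of all genes tested, 4490 were higher in males, which is 34.4%, and 4906 were lower, which is 37.6%, so that 71.9% were called in all. Many differences were small, since 2957 of the 4906 genes lower in males and 1671 of the 4490 genes higher in males differed by less than 2-fold. Among large differences the direction was uneven. Past 4-fold, 2341 called genes (17.9%) were higher in males and 590 (4.52%) higher in females, and past 16-fold the numbers were 1959 (15%) and 128 (0.98%). The 1959 genes took 15.9% ± 1.18 (SD, n = 3) of all counts in the males and 0.112% ± 0.0230 in the females. The 128 genes took 2.88% ± 0.396 in the females and 0.0225% ± 0.00452 in the males.

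**Figure D1:**
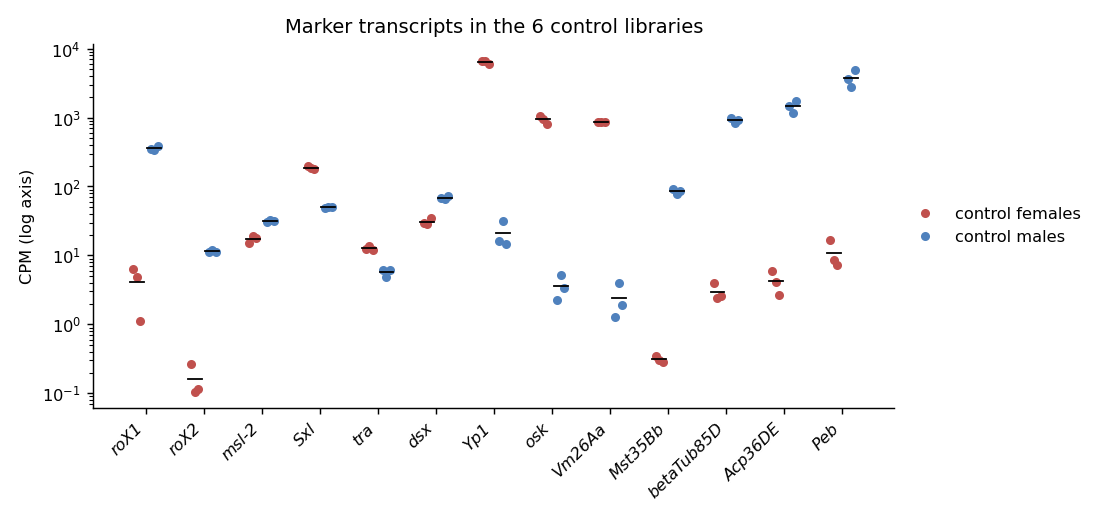
CPM on a log axis of 13 marker transcripts in the 3 control female and 3 control male libraries; points are libraries and bars are group means. The sexes are separate for each transcript shown, from msl-2 with a log2 fold change of 0.86 to Peb with 8.46 and Vm26Aa with -8.50.

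The noncoding RNAs of the dosage compensation complex were far higher in males, while only msl-2 rose among its protein genes. roX1 had 6.30, 4.93 and 1.13 CPM in the females and 353, 343 and 381 CPM in the males, a log2 fold change of 6.49 ± 0.49 (SE; adjusted p 2.34e-07). roX2 had 9, 6 and 9 counts in the females and 609, 511 and 525 counts in the males, with a log2 fold change of 6.28 ± 0.25 (adjusted p 4.64e-10). Both RNAs thus separated the sexes without overlap, and female library 3 had the lowest roX1 level of the 6. roX1 shares exon bases with ec on the opposite strand, and whether reads were counted by strand is unknown here.

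msl-2, the subunit whose protein is made only in males, had RNA in both sexes, with 15.2, 18.8 and 18.1 CPM in the females and 30.6, 32.4 and 31.9 CPM in the males. The male level was higher by 0.86 ± 0.15 on the log2 scale (adjusted p 0.000326). msl-1, which forms the scaffold of the complex with msl-2, went the other way, from 106, 98.5 and 76.9 CPM in the females to 22.6, 24.7 and 23.8 CPM in the males (log2 fold change -1.98 ± 0.20, adjusted p 3.48e-06). The acetyltransferase gene mof had a log2 fold change of -0.52 ± 0.12 (adjusted p 0.00263), the helicase gene mle -0.21 ± 0.07 (adjusted p 0.0154), and CG1832, now Clamp, which encodes a zinc finger protein that binds the complex's entry sites, -0.34 ± 0.06 (adjusted p 0.000291). msl-3 was not called at -0.21 ± 0.09 (adjusted p 0.051). Of the 8 genes of the complex and its binding partner, 3 were higher (37.5%) and 4 lower (50%) in males. Over all genes tested the shares were 34.4% and 37.6%, and no result is read from so few genes.

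Among 13 genes of the NSL complex and other X chromatin partners, 11 were lower (84.6%) and 2 higher (15.4%) in males. Over all genes tested the shares were 37.6% and 34.4%. The one large rise was Pof, which encodes a protein that coats chromosome 4, with 24.4, 21.9 and 23.2 CPM in the females and 364, 307 and 334 CPM in the males (log2 fold change 3.85 ± 0.10, adjusted p 1.13e-11). Pof shares exon bases with Mmp1 on the opposite strand. The kinase gene JIL-1 rose by 0.25 ± 0.08 (adjusted p 0.0193), a call lost in 4 of the 6 fits that left out a library. The topoisomerase gene Top2 had the largest fall, from 373, 352 and 299 CPM to 50.3, 52.7 and 53.3 CPM (log2 fold change -2.71 ± 0.23, adjusted p 6.71e-07).

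X-linked genes were lower in males at the median, and the X took a smaller share of counts there. Its share was 17.2%, 17.1% and 16.8% in the female libraries and 12.8%, 13.0% and 13.1% in the males. That share also counts abundant genes with large sex differences. The 4 yolk genes, all X-linked, took 1.64% of female and 0.00664% of male counts. The 1959 genes over 16-fold higher in males, 1655 of them autosomal, took 15.9% of male counts. Their part in the gap was not tested. X-linked genes (n = 2075) had a median log2 fold change of -0.23 and autosomal genes (n = 10932) one of 0.05. The 2 medians lay 0.28 apart with the X below (-0.28), a male to female ratio of 0.824 for the X relative to the autosomes. Taken per library against the mean of the females, the X lay at 0.00, 0.01 and -0.01 relative to the autosomes in the females and at -0.31, -0.27 and -0.28 in the males, and the groups did not overlap. The male mean was -0.29 ± 0.02 (SD, n = 3). Since the base is the mean of the females, their values lie near 0 by construction, and the lack of overlap is a description. An exact two-sided permutation test gave p 0.1 both for this measure and for the X's share of counts, which uses no such base. That is the smallest p that 3 against 3 libraries can give. Without the genes past 4-fold the difference of medians was -0.23, and between the peaks of the 2 distributions it was -0.28. Left out one at a time, the libraries moved the difference of medians between -0.26 and -0.30.

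The shift of the X was not the same at all expression levels. Among genes with a mean log2 CPM of 3 to 5 it was -0.29, and at 5 to 7 it was -0.28. It was smaller, at -0.18, both above 7 and from 1 to 3. Below 1, where 48.1% of X-linked and 45.8% of autosomal genes were over 4-fold higher in males, the X median lay 0.15 above that of the autosomes. Of all X-linked genes 991 were called lower (47.8%) and 562 higher (27.1%), against 35.8% and 35.5% of autosomal genes.

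**Figure D2:**
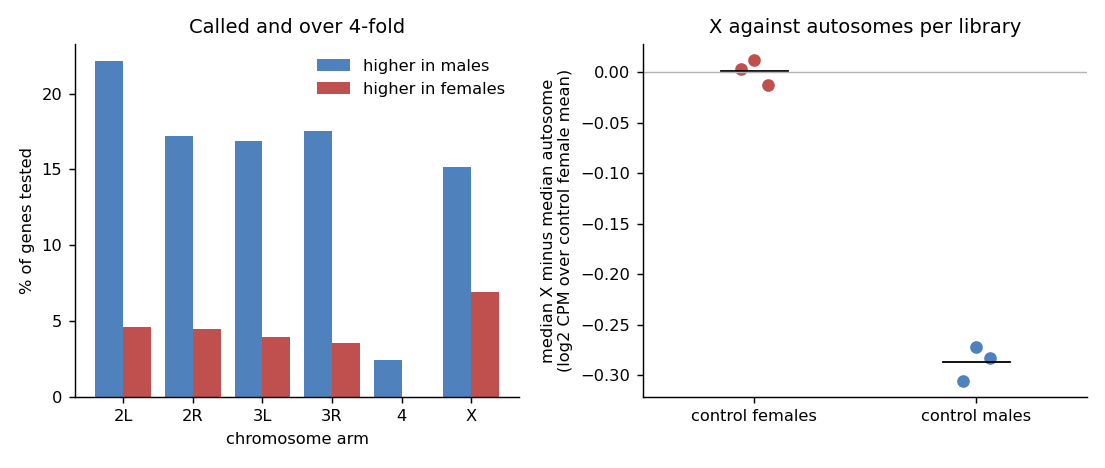
Left, percent of genes tested on each chromosome arm that were called and over 4-fold higher in males or females; right, the median of X-linked minus the median of autosomal genes per library, in log2 CPM over the control female mean, with bars at group means. Arm 2L has the highest share of male-high genes at 22.2% and the X the highest share of female-high genes at 6.89%, and the male libraries lie between -0.31 and -0.27 on the right.

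Genes with large sex differences were spread unevenly over the chromosome arms. Genes over 4-fold higher in males made up 22.2% of genes tested on 2L, 17.2% on 2R, 16.9% on 3L, 17.6% on 3R and 15.1% on the X. Genes over 4-fold higher in females made up 6.89% on the X, 143 genes, and 3.53% to 4.62% on these autosomal arms. Past 16-fold, 2.27% of X-linked and 0.741% of autosomal genes were higher in females. On the small chromosome 4, 2 of 82 genes were over 4-fold higher in males and 77 of 82 lay within 2-fold. The ribosomal protein gene RpS3A (log2 fold change -1.38 ± 0.12) and CG11076 (-1.15 ± 0.08) fell most there among the better expressed genes, and dpr7 (0.55 ± 0.15) and the activin ligand gene Actbeta (0.47 ± 0.10) rose most. CG11076 shares exon bases with ATPsyn-beta on the opposite strand. These shares are descriptions, and no test of a difference between arms was made.

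The X also held transcripts found almost only in males. CG32652, now annotated as a long noncoding RNA, had 1.20, 0.441 and 0.582 CPM in the females and 249, 215 and 244 CPM in the males. The testis thioredoxin gene TrxT had 1.20, 0.565 and 0.763 CPM in the females and 249, 217 and 230 CPM in the males. CG32548, CG1394 and CG1324, chosen with them for the size of the rise among better expressed X-linked genes, also had log2 fold changes between 7.89 and 8.42.

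**Figure D3:**
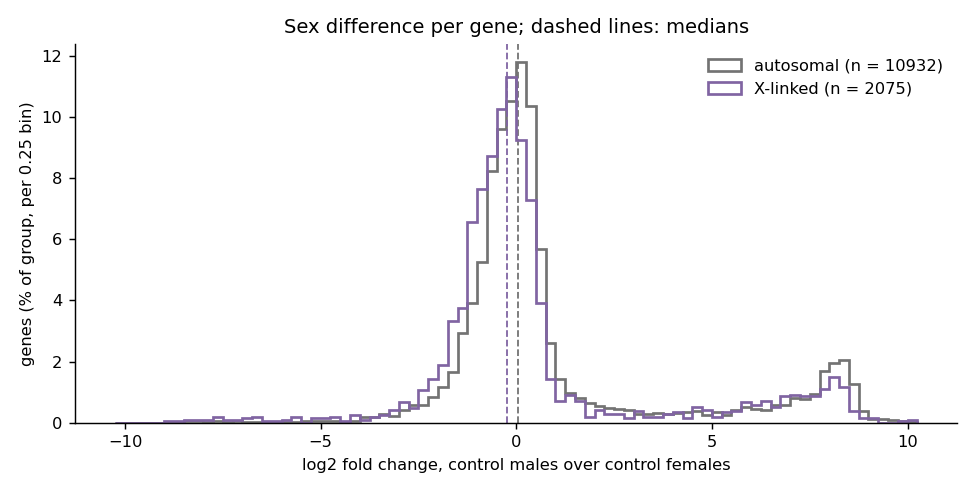
Share of autosomal (n = 10932) and X-linked (n = 2075) genes per bin of log2 fold change, males over females, with dashed lines at the medians of 0.05 and -0.23. Both distributions have a second, smaller peak far to the right, the genes found almost only in males, and the main peak of the X lies to the left of that of the autosomes.

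Of the 12 sex determination genes, 9 were lower (75%) and 3 higher (25%) in males, beside 37.6% and 34.4% of all genes. Sxl, the switch gene at the top of the cascade, had 196, 186 and 178 CPM in the females and 49.1, 50.2 and 50.2 CPM in the males (log2 fold change -1.91 ± 0.07, adjusted p 3.70e-10). All 21 transcript records of Sxl were lower in males, with male over female ratios from 0.243 to 0.751. tra, the splicing regulator below Sxl, had 12.3, 13.6 and 11.9 CPM in the females and 6.11, 4.85 and 6.15 CPM in the males (log2 fold change -1.14 ± 0.12, adjusted p 3.79e-06). Its partner tra2 fell by 0.29 ± 0.10 on the log2 scale (adjusted p 0.0217), a call not made by DESeq2 (adjusted p 0.0894).

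Genes that work with Sxl or dsx were lower in males too. The spliceosomal snf had a log2 fold change of -0.98 ± 0.06, and nito, fl(2)d and vir, subunits of the RNA methylation machinery that Sxl splicing needs, had -1.27 ± 0.10, -0.69 ± 0.06 and -0.61 ± 0.07. The dsx cofactor ix had -0.75 ± 0.14 and the zinc finger gene her -0.55 ± 0.08. The X-linked signal gene sisA was low in all libraries, at 0.35, 0.318 and 0.142 CPM in the females and 6.33, 4.57 and 3.50 CPM in the males, a rise of 4.24 ± 0.32 (adjusted p 2.08e-07). fru, which controls male courtship, rose by 0.30 ± 0.08 (adjusted p 0.00683), and its 14 transcript records had male over female ratios of 1.10 to 1.57.

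dsx, the transcription factor at the end of the cascade, is spliced differently in the sexes, and its value turned on the transcript record. The record with the most counts had 29.6, 28.1 and 34.8 CPM in the females and 68.7, 66.3 and 72.1 CPM in the males (log2 fold change 1.16 ± 0.11, adjusted p 2.34e-06). The other records went the other way. The second had 48.5, 46.8 and 58.7 CPM in the females and 37.1, 37.6 and 38.5 CPM in the males, and the last had nearly the same values, so the male over female ratio was 2.24 for the first record, 0.735 for the second and 0.715 for the last. With the records summed the log2 fold change was 0.08 (adjusted p 0.561). These records share reads, and dsx shares exon bases with lds on the opposite strand.

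The female-high genes began with yolk and eggshell. All 4 yolk genes, each X-linked, were over 4-fold lower in males: Yp1 and Yp2 by 8.27 ± 0.38 and 8.20 ± 0.40 on the log2 scale, Yp3 by 7.34 ± 0.24 and the oocyte yolk receptor gene yl by 7.57 ± 0.45. They took 1.64% ± 0.134 (SD, n = 3) of counts in the females and 0.00664% ± 0.00247 in the males. All 24 eggshell genes were called lower in males, beside 37.6% of all genes tested. Of the 24, 23 were over 4-fold lower, beside 4.52% of all genes, with a median of -7.45 where all genes had 0.01. Of these 24 genes 10 are X-linked, against 2075 of the 13060 genes tested.

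The named vitelline membrane and chorion genes differed in how much they varied among the females. The vitelline membrane gene Vm26Aa had 849, 871 and 855 CPM in females 1 to 3 and 1.28, 3.99 and 1.91 CPM in the males, and Vm34Ca had 481, 505 and 496 CPM against 0.894, 2.51 and 0.784 CPM. The chorion gene Cp38, which is made later in egg formation, had 668, 302 and 168 CPM in the females and 0.596, 1.42 and 0.382 CPM in the males. Cp36 had 388, 185 and 105 CPM in the same females, so female 3 was the lowest for both. Cp16, named after its values were seen, varied more, with 95.8, 63.0 and 1.63 CPM in females 1 to 3 and no male library above 0.232 CPM. The groups did not overlap for any of these genes, but the SE of the log2 fold change was 0.74 for Vm26Aa at -8.50 and 1.58 for Cp38 at -8.92.

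Maternal RNAs followed. Of 36 maternal axis genes 28 were lower (77.8%) and 3 higher (8.33%) in males, beside 37.6% and 34.4% of all genes. Their median was -1.92. osk, the posterior determinant, had 1041, 968 and 819 CPM in the females and 2.27, 5.22 and 3.37 CPM in the males (log2 fold change -8.03 ± 0.46, adjusted p 1.83e-08). gnu, needed for the first embryonic cycles, fs(1)M3, a vitelline membrane component, and vas, the germline helicase, had log2 fold changes of -7.67 ± 0.50, -7.07 ± 0.40 and -4.75 ± 0.19. The 3 that rose were exu, which localises bicoid RNA in the oocyte, from 170, 178 and 148 CPM to 932, 816 and 883 CPM, and the actin nucleators capu (2.54 ± 0.08) and spir (0.83 ± 0.09). exu shares exon bases with CG30152 on the opposite strand. The oocyte thioredoxin gene dhd had 1096, 933 and 632 CPM in the females and 3.45, 6.85 and 3.77 CPM in the males.

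Germline regulators were mixed. Of 11 genes of germline differentiation, 7 were lower (63.6%) and 3 higher (27.3%) in males, beside 37.6% and 34.4% of all genes. The germline gap junction gene zpg had 139, 127 and 97.9 CPM in the females and 2.03, 1.93 and 1.44 CPM in the males (log2 fold change -6.07 ± 0.38), and bam, a differentiation factor in both sexes, had a log2 fold change of -2.38 ± 0.16. The partner of bam, bgcn, went from 0.963, 0.848 and 0.983 CPM to 31.1, 27.9 and 30.5 CPM (log2 fold change 5.0 ± 0.09, adjusted p 3.16e-12), and CG32364, now tut, which acts with both in the testis, rose by 1.57 ± 0.17.

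The piRNA pathway, which silences transposons in the germline of both sexes, was lower in males for 22 of 24 genes, with a median of -2.08. Lower genes made up 91.7%, beside 37.6% of all genes tested. piwi had 152, 156 and 140 CPM in the females and 4.45, 4.50 and 4.56 CPM in the males (log2 fold change -5.05 ± 0.17, adjusted p 1.18e-10). aub, shu and armi had log2 fold changes of -3.74 ± 0.22, -3.83 ± 0.11 and -2.67 ± 0.13. The exception among the called genes was CG7082, now papi, at 0.86 ± 0.08.

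Cell cycle and DNA replication genes were lower in males for 36 of 39 members (92.3%), beside 37.6% of all genes, with a median of -2.49. The other 3 were not called; at an unadjusted p under 0.05, 2 genes were higher in males, and DESeq2 called 1. stg, the mitotic Cdc25 phosphatase, had 115, 101 and 72.8 CPM in the females and 2.35, 2.39 and 2.12 CPM in the males (log2 fold change -5.39 ± 0.31). The replication clamp gene mus209, now PCNA, had 124, 129 and 102 CPM in the females and 12.7, 12.9 and 9.32 CPM in the males, and the helicase subunit Mcm6 and the ribonucleotide reductase subunit RnrS had log2 fold changes of -2.98 ± 0.18 and -3.11 ± 0.18. twe, the meiotic Cdc25 phosphatase, was not called at 0.94 ± 0.40 (adjusted p 0.0526), with 31.1, 26.6 and 14.1 CPM in the females.

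On the male side, genes of the spermatocyte transcription programme came first. All 11 meiotic arrest genes were higher in males, 9 of them over 4-fold, with a median of 6.39. The share of all genes tested over 4-fold higher in males was 17.9%. Members such as aly, sa, can and comr had few female counts and passed the filter on low counts through male libraries. The direction of such members followed from that. The testis TAF homologues sa, can, nht and mia, whose products act with RNA polymerase at spermatocyte promoters, had log2 fold changes of 7.09 ± 0.26, 6.39 ± 0.24, 7.16 ± 0.29 and 1.18 ± 0.13. aly, of the testis meiotic arrest complex, had 7.77, 6.06 and 6.40 CPM in the males and at most 0.0875 CPM in a female library. comr, of the same complex, had 2 counts over the 3 females and 420 over the males, which makes a ratio of 245 (exact 95% counting interval 67.5 to 2033). The members with the smallest rises were achi (0.50 ± 0.10) and mia.

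Sperm structural genes were higher in males for 45 of 46 members, each over 4-fold, beside 17.9% of all genes, with a median of 8.11. The testis tubulin gene betaTub85D had 3.94, 2.42 and 2.56 CPM in the females and 981, 846 and 909 CPM in the males (log2 fold change 8.28 ± 0.26). The sperm leucyl aminopeptidase homologue loopin-1 had 1846, 1594 and 1732 CPM in the males, and its relatives CG6372, CG13340 and CG32064, now S-Lap1, S-Lap7 and S-Lap4, had male means of 1969, 1621 and 1346 CPM. These 4 were among the 8 most abundant transcripts over 16-fold higher in males. The postmeiotic transcripts schuy and c-cup had log2 fold changes of 8.52 ± 0.17 and 8.10 ± 0.15. Only oys, a lipid acyltransferase gene, was not called, at -0.06. The kinase gene CG14305, now Tssk, with 185, 160 and 174 CPM in the males and at most 0.613 CPM in a female library, rose by 8.89 ± 0.29.

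Females carry no Y, so Y-linked genes passed the filter on low counts through male libraries and their direction followed from the design. Of 24 Y-linked genes kept, 18 were tested, and all 18 were over 4-fold higher in males. Of the 10 in the list of named Y-linked genes, the sperm dynein gene kl-3 had 9.57, 8.73 and 9.09 CPM in the males and kl-2, another dynein gene, had 13.2, 12.2 and 13.8 CPM. Ppr-Y and Pp1-Y1 had no counts in the females and 360 and 231 counts over the males, at least 41.7-fold and 26.7-fold higher when 3 counts per library are taken as the floor. kl-5 had 3 counts over the females and 1084 over the males, which makes a ratio of 422 (exact 95% counting interval 144 to 2051). CG41503, now FDY, had the smallest difference, with 0.204, 0.265 and 0.388 CPM in the females and 2.38, 1.62 and 2.16 CPM in the males. The median of the 10 was 8.15, and 7.94 with the genes without female counts at their bound. The Y-linked genes other than CG41503 summed to 9, 10 and 10 counts in the female libraries and 3114, 2357 and 2857 counts in the males.

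Seminal fluid genes, expressed mainly in the male accessory gland, were higher in males for all 44 members, each over 4-fold, with a median of 8.34. Among all genes tested 17.9% were over 4-fold higher in males. Sfp23F and Sfp36F, with 3 and 2 counts over the females, passed the filter on low counts through male libraries, which set their direction. Acp36DE, needed for sperm storage in the mated female, had 5.92, 4.11 and 2.70 CPM in the females and 1471, 1150.0 and 1724 CPM in the males (log2 fold change 8.44 ± 0.46). Acp53Ea, Mst57Da and Sfp60F of the list and Sfp24Bb outside it had log2 fold changes of 8.56 to 8.75. None of the 44 is X-linked. Seminal fluid transcripts took 0.716% to 1.09% of counts in the males, and male 2 was the lowest of the 3 for each of these 5 genes.

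Genes of the ejaculatory duct and bulb were higher in males for 7 of 8 members, beside 34.4% of all genes. Peb, a mating plug protein, was the most abundant of all transcripts over 16-fold higher in males, with 3673, 2800.0 and 4905 CPM there and 16.5, 8.72 and 7.28 CPM in the females (log2 fold change 8.46 ± 0.56). PebII, Dup99B and Anp rose by 8.46 ± 0.54, 7.96 ± 0.38 and 7.58 ± 0.40, while Jhedup was not called at -0.27. The 5 genes of the female sperm storage organ, the spermatheca, were all lower in males, beside 37.6% of all genes. The protease gene CG17012, now Send1, had 133, 206 and 235 CPM in the females and 0.559, 0.975 and 0.212 CPM in the males (log2 fold change -8.38 ± 0.53), and the other 4 had log2 fold changes of -7.71 to -6.31.

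**Figure D4:**
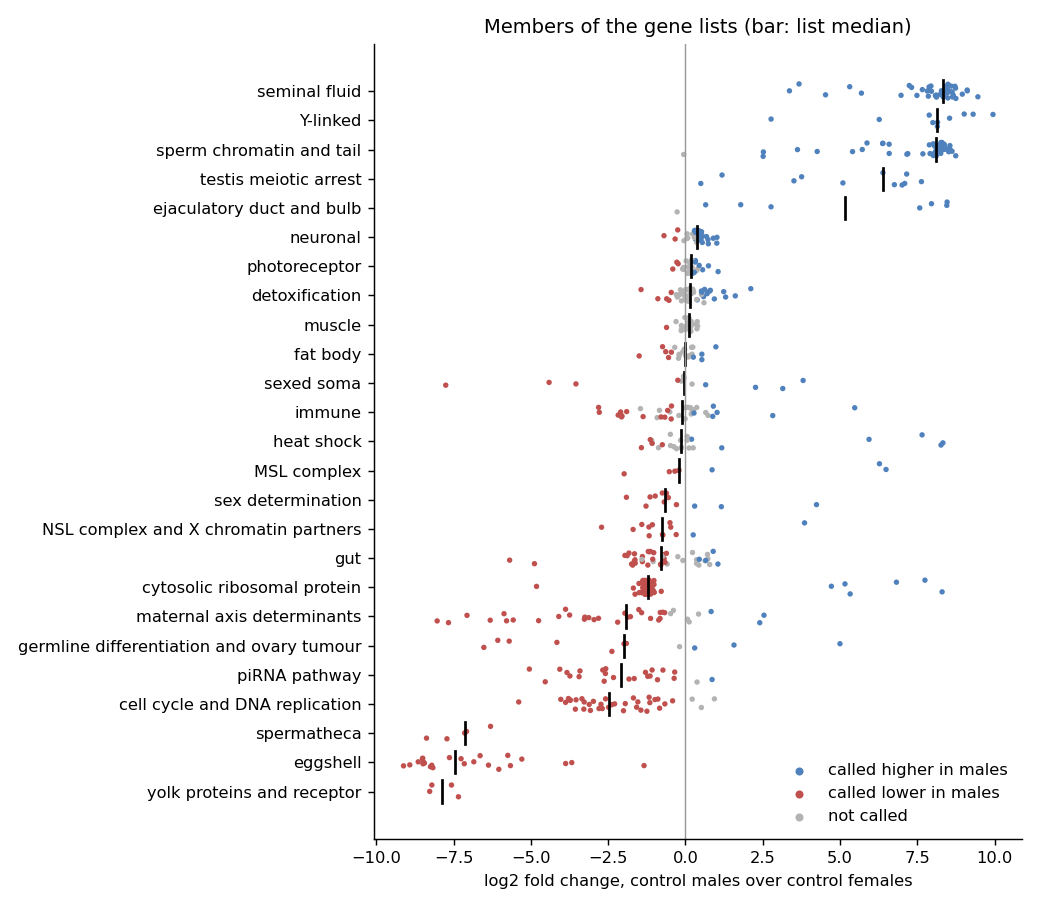
Log2 fold change, males over females, of each tested member of 25 gene lists, ordered by list median (black bar) and coloured by call. Sperm, seminal fluid and Y-linked lists have medians of 8.11 to 8.34 and yolk and eggshell lists of -7.89 and -7.45, while muscle, photoreceptor and fat body lists lie near 0.

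Of 12 genes known for sex differences outside the reproductive tract, 4 were higher (33.3%) and 4 lower (33.3%) in males, near the 34.4% and 37.6% of all genes tested. Fad2 and eloF, a desaturase and an elongase of female pheromone synthesis, had log2 fold changes of -7.75 ± 0.87 and -4.41 ± 0.36. Fad2 had 526, 525 and 294 CPM in the females and 1.36, 4.20 and 0.763 CPM in the males. fit, a satiety signal of the female fat body around the brain, had 27.1, 23.2 and 26.1 CPM in the females and 2.16, 1.51 and 2.86 CPM in the males. Cyp4d21, known as sxe1, and sxe2, male-enriched in the head, rose by 3.81 ± 0.33 and 2.27 ± 0.23, and the nuclear receptor gene dsf by 3.15 ± 0.38 at levels under 1 CPM.

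Cytosolic ribosomal protein genes moved together. Of 89 members 83 were lower (93.3%) and 6 higher (6.74%) in males, beside 37.6% and 34.4% of all genes. The list took 10.1% ± 0.567 (SD, n = 3) of counts in the females and 4.31% ± 0.118 in the males. The median was -1.23. sop, now RpS2, had 2125, 2255 and 2068 CPM in the females and 676, 694 and 638 CPM in the males (log2 fold change -1.68 ± 0.10, adjusted p 1.85e-08), and sta and RpL34a had log2 fold changes of -1.63 ± 0.10 and -1.35 ± 0.08. The 6 that rose were second copies: RpL10Aa, RpL22-like, RpL37b, RpS10a, RpS19b and RpS28a, by 4.72 to 8.30. RpS5b, a copy known from the ovary, had 713, 703 and 560 CPM in the females and 24.4, 23.5 and 22.3 CPM in the males (log2 fold change -4.82 ± 0.28).

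Genes with a germline copy and a general copy were set side by side. For the cap-binding factor, eIF4E-3 had 0.233, 0.159 and 0.194 CPM in the females and 69.3, 61.4 and 64.9 CPM in the males, while the general eIF-4E had 410, 418 and 384 CPM in the females and 205, 202 and 199 CPM in the males. The proteasome copies Prosalpha3T, Pros28.1A, Pros28.1B and Prosalpha6T rose by 6.94 to 8.64, beside 0.03 ± 0.13 for Pros29, -0.77 ± 0.14 for Pros28.1 and -0.46 ± 0.14 for Pros35. Hsp60B, a testis chaperonin, had a log2 fold change of 8.27 ± 0.27 and the general Hsp60 -1.14 ± 0.10. Among mitochondrial copies, tomboy20, tomboy40 and the sperm fusion GTPase gene fzo rose by 8.05 ± 0.22, 7.15 ± 0.22 and 6.59 ± 0.20, beside -0.13 ± 0.06, -1.24 ± 0.10 and -0.43 ± 0.08 for Tom20, Tom40 and Marf.

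Thioredoxins had a copy at each end. TrxT rose by 8.17 ± 0.21, dhd fell by 7.57 ± 0.61 on the log2 scale and the general Trx-2 fell by 0.56 ± 0.06. The maternal tubulin gene alphaTub67C had a log2 fold change of -8.06 ± 0.48, and alphaTub84B was not called at 0.23 ± 0.11 (adjusted p 0.0756). A few copies went against their listed organ or did not move. RpS19b, listed for the ovary, rose by 4.72 ± 0.23, from 0.554, 0.794 and 0.867 CPM to 21.7, 18.3 and 20.4 CPM. Ntf-2r was not called at 0.06 ± 0.08, although Ntf-2 had a log2 fold change of -1.02 ± 0.07. Copies that are close in sequence can share reads, and how close these copies are was not measured.

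**Figure D5:**
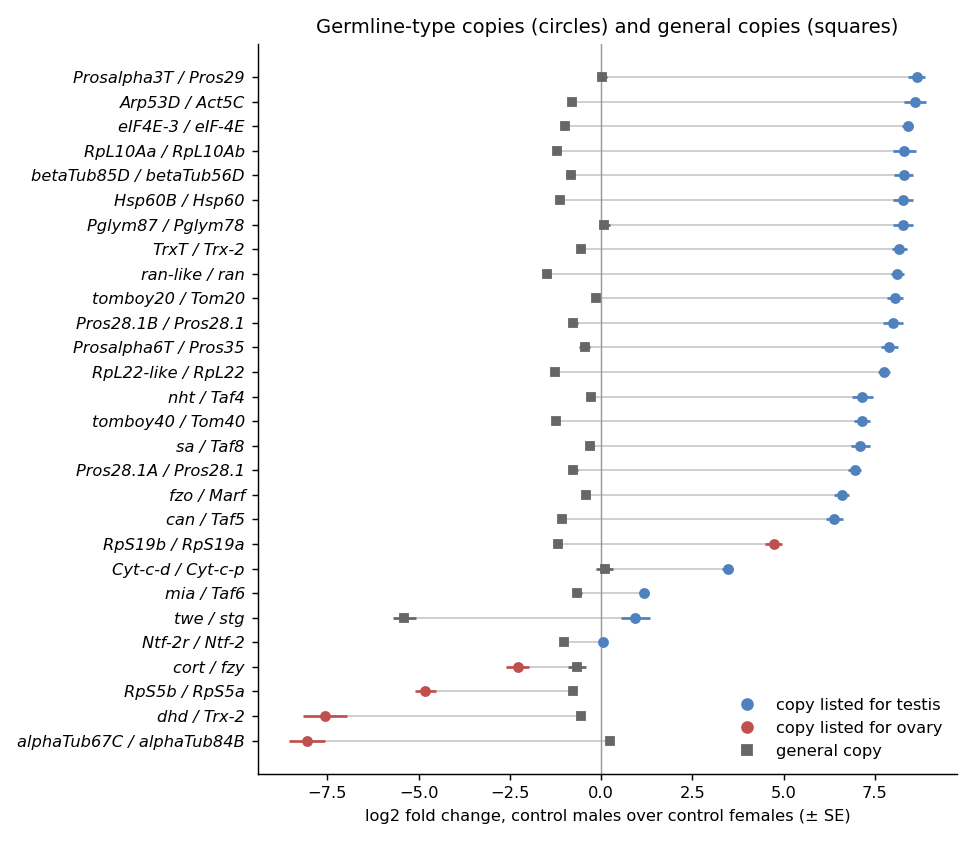
Log2 fold change with SE, males over females, of germline-type copies (circles, coloured by the organ they are listed for) and the general copy of the same pair (squares). Most testis copies, from can (6.39) to Prosalpha3T (8.64), lie far to the right. Cyt-c-d (3.47), mia (1.18), twe (0.94) and Ntf-2r (0.06) are testis-listed copies with smaller values, the last 2 not called. The general copies lie between -1.47 and 0.23 apart from stg at -5.39, and RpS19b is an ovary-listed copy on the male side.

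Muscle and photoreceptor genes lay near 0. Of 27 muscle genes 26 were not called and TpnC73F was lower in males (-0.61 ± 0.18, adjusted p 0.0107). In the main fit no muscle gene was called higher in males or had an unadjusted p under 0.05 in that direction. DESeq2 called 5, and edgeR called 3 without female 3, 2 with library size only and 1 without male 3. The median was 0.11. Of 29 photoreceptor genes 8 were higher (27.6%) and 3 lower (10.3%), with a median of 0.19. Over all genes tested 34.4% were higher and 37.6% lower. The 8 became 4 to 10 in the fits without a library, 5 in those with autosomal scaling, the replicate block or summed transcripts, and 13 in DESeq2. The phospholipid transfer gene rdgB had the largest rise there, from 41.9, 41.8 and 40.6 CPM to 89.3, 85.6 and 83.6 CPM. Of 35 neuronal genes 24 were higher (68.6%) and 3 lower (8.57%) in males, beside 34.4% and 37.6% of all genes. Their median was 0.39. The active zone gene brp had 19.3, 21.4 and 23.2 CPM in the females and 39.8, 46.2 and 43.3 CPM in the males (log2 fold change 1.02 ± 0.10), and the vesicular transporter gene Vmat rose by 1.02 ± 0.10. CPM are shares of a library, and genes over 4-fold lower in males took 6.20% ± 0.814 of female counts while genes over 4-fold higher took 17.9% ± 1.31 of male counts. The part of these shares in such small shifts was not tested.

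Gut genes were lower in males for 25 of 43 tested members (58.1%) and higher for 4 (9.3%), beside 37.6% and 34.4% of all genes. Their median was -0.80. They took 1.02% ± 0.236 of counts in the females against 0.567% ± 0.143 in the males. The digestive lysozyme gene LysB had 270, 280 and 161 CPM in the females and 70.6, 45.8 and 66.7 CPM in the males, and its near-identical paralog LysE fell with it. The 4 that rose were the regulator lab, the glucosidase gene tobi and the maltases CG11669 and CG8690, and their number ranged from 1 to 7 in the fits without a library. Of 23 fat body genes 4 were higher (17.4%) and 5 lower (21.7%), with a median of -0.03. Over all genes tested 34.4% were higher and 37.6% lower. The larval storage protein gene Lsp2 rose by 0.98 ± 0.29 and Lsp1alpha fell by 1.5 ± 0.33. Adh and Adhr, which overlap and had nearly identical counts, rose by 0.53 ± 0.19, and their calls were lost without female 1 or 2 or male 2 or 3.

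Of 36 immune genes tested, 6 were higher (16.7%) and 13 lower (36.1%) in males, the second near the 37.6% of all genes. Their median of -0.11 ranged from -0.44 without male 2 and -0.35 without female 1 to -0.07 without male 1. The cecropin genes CecA1 and CecA2, which encode antibacterial peptides, rose by 5.48 ± 0.45 and 2.82 ± 0.50, and CecA1 went from 0.263, 0.282 and 0.155 CPM to 10.7, 8.29 and 11.2 CPM. The antifungal peptide gene Drs had 114, 110 and 89.5 CPM in the females and 27.6, 24.9 and 23.2 CPM in the males (log2 fold change -2.05 ± 0.15), and the recognition gene PGRP-SD rose by 1.02 ± 0.12. Of 24 heat shock genes 6 were higher (25%) and 4 lower (16.7%), beside 34.4% and 37.6% of all genes, and 7 were lower without male 3. Hsc70-2 rose from 4.35, 5.58 and 4.87 CPM to 326, 284 and 302 CPM (log2 fold change 5.94 ± 0.11), along with Hsp60B, Hsp60C and Hsp60D. Hsc70-4, Hsp83, Hsp60 and the heat shock factor gene Hsf fell. The Hsp70 genes were not called, with log2 fold changes of -0.49 to -0.29. Of 47 detoxification genes 14 were higher (29.8%) and 5 lower (10.6%), beside 34.4% and 37.6% of all genes. Those higher included the glutathione transferase genes GstD5 (2.12 ± 0.31) and GstD9 (1.24 ± 0.09).

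Abundant transcripts of the reproductive organs of one sex had counts in the other sex too. The genes described here were chosen by their sex difference, over 16-fold, so their share in the other sex lies under about 6.25% by choice and is a description. Among seminal fluid genes with at least 50 CPM in males and over 16-fold higher there, 26 genes, the female level was 0.326% of the male level at the median, with quartiles of 0.290% and 0.424%. For 37 sperm genes chosen in the same way the median was 0.362%, for the Y-linked genes other than CG41503 the summed female level was 0.328%, and for 20 yolk and eggshell genes the male level was 0.341% of the female level. Maternal axis genes had more, 1.28% of the female level at the median of 6 genes, with quartiles of 0.553% and 2.03%. Single genes reached 4.30% among seminal fluid and 5.21% among sperm genes. The shares differed between libraries of a sex. It was 0.493% for seminal fluid and 0.498% for sperm genes in female 1, and 0.227% to 0.288% in females 2 and 3. For yolk and eggshell genes it was 0.555% in male 2, against 0.25% and 0.228% in males 1 and 3. The source of these counts was not tested. A share of 0.326% corresponds to a fold change of 307, or 8.26 on the log2 scale, and no order is read from fold changes of about that size.

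Genes with at most 3 counts in each library of one sex and at least 10 in each of the other numbered 339 on the male side, 42 of them with no female count and 15 of them Y-linked, and 12 on the female side. Such genes were chosen by their counts in each sex, so their direction followed from the choice. The 12 were 6 small nucleolar RNAs and CG13113, CG14624, CG15571, CG3457, CG4066 and Ir47a, named after their values were seen. CG3457, on the X, had 384, 627 and 615 counts in the females and 2, 1 and 3 in the males.

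The transgenic flies gave a male to female difference in libraries that share no sample with the controls, although 1 fit estimated the spread of all 12. Transgenic females lacked TM3, and the full genotype of the transgenic males is not given. The transgenic difference may therefore also hold a difference of genotype. Across the 13060 genes the sex difference in transgenic flies and that in controls had a Pearson correlation of 0.984, a description across genes that are not independent. Of the 2341 genes over 4-fold higher in control males 2334 were called in the same direction in the transgenic flies, where 31.5% of all genes were called higher in males, and of the 590 lower 563 were, where 38.5% were called lower. Yp1 had log2 fold changes of -8.27 ± 0.38 in controls and -8.15 ± 0.38 in transgenic flies, and Mst35Bb 8.12 ± 0.12 and 8.48 ± 0.12. Sxl had -1.91 ± 0.07 and -1.97 ± 0.07. The difference between the 2 sex differences was called for 165 genes, 1.26% of those tested. Of the 241 named genes 9 were among them: roX1, roX2, LysE, Rh6, CG32364, PGRP-LE, eIF4E-3, Cyp4d14 and GstD3. The sex difference of LysE was -1.71 ± 0.24 in controls and 0.50 ± 0.24 in transgenic flies, that of the rhodopsin gene Rh6 0.56 ± 0.10 and -0.38 ± 0.10, and that of CG32364 1.57 ± 0.17 and 0.12 ± 0.16.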

How the data were processed

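RNA of whole adult flies was extracted with TRIZOL and, per the labels' protocols, libraries were built with Illumina's TruSeq kit. The submitters' processing notes name TopHat, HTSeq and dm3 without versions, and no source used here gives the counting mode, strand handling or annotation. Raw read counts per transcript were deposited in 1 autosomal and 1 X-linked table. A second column for each library is a fraction, the count over its own table's total as the authors computed it (largest deviation 5.00e-10), which removes a shift of the X against the autosomes, so only the counts were used, with both tables joined.

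The transcript with the highest total over the 12 libraries was kept for each gene (14161 genes, 11923 autosomal and 2238 X-linked). R 4.3.3 with edgeR 4.0.16 fitted the 4 group means over all 12 libraries (TMM; at least 10 counts in filterByExpr; quasi-likelihood F test; Benjamini-Hochberg threshold of 0.05), which tested 13060 genes. SEs were derived from the estimate and its F statistic, as |log2 fold change| over the root of F. DESeq2 1.42.0 was an alternative. Other steps used Python 3.11.15 with scipy 1.17.1 and matplotlib 3.10.9. Arms came from RefSeq's Release 6 annotation and exon overlaps from Ensembl BDGP6.54, both later than dm3, so no coordinates are given. Data were simulated from the control female means (12076 genes), with few genes changed besides a small shift of the X. There the fit called 69.6% of 46 genes changed 2-fold and 93.6% of 47 changed 4-fold. Far more genes differed in the real libraries, so these rates may not hold for them. Intervals and floors of 3 counts cover counting error only.

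The comparison, its 25 gene lists and its gene pairs were chosen with earlier results of these data known. Lists were described by counts and medians, without a test. The background for each list's counts is 34.4% higher and 37.6% lower among all genes tested. Unmatched symbols were benr, qin, rye, PRY, WDY, Acp33A and Cyp6a14. Named genes were the MSL complex, sex determination, yolk, Y-linked and meiotic arrest genes, the members of the gene pairs, and up to 4 called list members per direction with the smallest p. Added to these were the 10 largest changes in each direction among called genes whose mean log2 CPM reached 3 and whose groups did not overlap (5 for the X, 2 for chromosome 4), and the 8 most abundant genes over 16-fold different in each sex. Other list members are named with their log2 fold changes where the text describes how a list divides, chosen after their values were seen. Of 241 named genes 45 share exon bases with another gene, among them piwi, aub, bam, CG1832, fit and vas. Their values may include reads of the other gene. Alternatives were 3 scalings or tools, 2 filters on low counts, the 6 control libraries alone, a replicate block, summed transcripts and each control library left out. The planned search of promoters for motifs was not run, and no sequences were used here.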

Additional observations from a re-analysis of the deposited data

Results flagged for a closer look

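For 165 of all genes tested, 9 of them among the 241 named genes, the sex difference was itself different between the transgenic flies and the controls by the interaction term of the edgeR fit. Control and transgenic females differed in the transgene, mini-white and TM3 at once, and the full genotype of the transgenic males is not given. The parts of these in such differences cannot be told apart here. The 2 largest of the 9 were RNAs of the dosage compensation complex. roX1 had a log2 fold change of 6.49 ± 0.49 (SE) between control males and control females and 1.56 ± 0.39 between transgenic males and females, a difference of -4.93 ± 0.58 (adjusted p 0.00601). Its level was 6.30, 4.93 and 1.13 CPM in control females and 112, 128 and 116 CPM in transgenic females, beside 327 to 381 CPM in the 6 male libraries of both kinds. roX2 had 6.28 ± 0.25 in controls and 0.06 ± 0.16 in transgenic flies, a difference of -6.22 ± 0.30 (adjusted p 2.84e-06). Transgenic females had 13.1, 14.1 and 9.67 CPM of roX2, beside 11.1 to 13.7 CPM in the 6 male libraries, where control females had 0.263, 0.106 and 0.116 CPM. msl-2 itself, which the transgene carries, had 447 to 616 CPM in transgenic females and 392 to 576 CPM in transgenic males, and its difference of -0.96 ± 0.21 was not called (adjusted p 0.0609). The other 7 named genes had smaller differences. The lysozyme gene LysE, which may share reads with its near-identical paralogs, had a difference of 2.21 ± 0.34 (adjusted p 0.0152), and the rhodopsin gene Rh6 had -0.93 ± 0.14 (adjusted p 0.0152). CG32364, now tut, had -1.45 ± 0.24 (adjusted p 0.0189), the recognition gene PGRP-LE -0.53 ± 0.10 (adjusted p 0.0281) and the testis cap-binding gene eIF4E-3 -1.24 ± 0.23 (adjusted p 0.0299). The detoxification genes Cyp4d14 and GstD3 had -1.51 ± 0.30 (adjusted p 0.0387) and 0.64 ± 0.13 (adjusted p 0.0404).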

How the results depend on the processing

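Across 14 alternatives the counts of genes higher or lower in males stayed within 1.5 times the reported ones. Genes higher in males numbered from 4044 (without female 2) to 4932 (DESeq2), and genes lower from 4710 (DESeq2) to 5121 (scaling on autosomal genes). The X minus autosome difference was negative in each alternative. Leaving out 1 library gave -0.261 (without male 1) to -0.299 (without female 3), and the other alternatives -0.278 to -0.294. Deviations of same-numbered male and female libraries from the mean of their sex had correlations of -0.0106, -0.269 and -0.411 over 8670 genes. Pairs with different numbers had -0.369 to 0.457. Deviations from the mean of so few libraries depend on each other, so these values cannot decide whether the numbers pair libraries. With the replicate block 4285 genes were higher, 4781 lower and the X difference was -0.282. Of 241 named genes 233 were called; 17 lost the call in at least 1 alternative, 4 gained it (msl-3, Tom20, alphaTub84B and twe) and 0 reversed. With library size only, mle was not called (adjusted p 0.0525), and without male 3 Pros35 was not (adjusted p 0.0505). dsx was not called with transcripts summed. Counts or medians moved most often for the photoreceptor list (9 values), then muscle (6), gut (5), and the NSL and fat body lists (4 each). The immune median lay between -0.445 and -0.0107. Promoter motifs were not run. Depth limits rare transcripts of the other sex, where 3 counts are 0.0377 to 0.0886 CPM per library before scaling.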

Other observations

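Genes over 4-fold higher in males lay next to each other on the chromosome arms in runs of tested genes. In the order of the RefSeq annotation, 47 runs of at least 5 such genes held 318 of the 2301 genes placed, and the longest had 18 genes, on 2L, from CG11629 to CG10834. One run of 15 genes on 2R held RpL22-like, ord and Prosbeta5R, and a run of 10 on 3R held Mst84Da, Mst84Db, Mst84Dc and Mst84Dd. A run of 11 on 3R held the seminal fluid genes Mst57Da, Mst57Db, Mst57Dc and Sfp96F. Genes over 4-fold higher in females formed 2 runs of at least 5, each of 6 genes. How many such runs a random order would give was not computed.

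Control libraries of the same sex varied to different degrees. The common biological coefficient of variation was 0.144 in control females and 0.101 in control males, and eggshell genes took 0.341% to 0.580% of counts in the females.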
